A study of Mus musculus with 18 samples.

Results

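The hepatic response to a high-fat diet (HFD) that was shared by 2 diet models was measured in 12 of the 18 arrays of the study, those of mice not given CMPF, a furan fatty acid found in plasma. The arrays were chosen by their titles alone: 3 chow and 3 HFD livers in the prevention model, and 3 chow and 3 HFD livers in the reversal model. Each array measured liver RNA of CD1 mice, an outbred stock. The HFD supplied 60% of its energy as fat. In the prevention model, mice on HFD were given vehicle for 1 week and then ate HFD for 4 weeks per the sample labels (the series text gives 4 to 5 weeks). In the reversal model, HFD was eaten for 6 weeks and vehicle was then given for 2 weeks. The labels call the chow animals of each model controls. Age and sex are not given in the sources used here; on all 12 arrays the Y-linked gene Eif2s3y read 8.48 to 9.24 and Xist 4.16 to 5.25 (log2 signal).

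When dietary fat exceeds what the liver burns or exports, hepatocytes take up fatty acids, esterify them to triglyceride and store them in lipid droplets. The nuclear receptor PPARγ, scarce in lean liver, is known to drive uptake and esterification genes in fatty liver. Mouse liver also carries a large set of sex-biased genes, many of them cytochromes P450 and conjugating enzymes, whose levels follow the pattern of growth hormone secretion.

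An HFD effect below is the log2 difference of HFD minus chow with model as a block, estimated with limma from 6 HFD and 6 chow arrays and given with its standard error (SE). A gene passed the test when its p-value, adjusted over all 13221 genes tested, was under 0.05. Whether the arrays of a group stand for separate animals is not stated, and p-values therefore measure only the variation among arrays, which may be technical. Levels are log2 signals, and probe sets with a mean under 4.01 were left out. As a sign of RNA quality, the log2 signals of the 3' and 5' control probe sets of Gapdh and beta-actin were compared. Their difference, the 3' to 5' index, rises as RNA shortens. Mean values were 1.43 ± 0.512 (SD, n = 3) in prevention chow, 2.84 ± 0.303 in prevention HFD, 3.15 ± 0.566 in reversal chow and 2.62 ± 0.969 in reversal HFD. The index was higher on HFD in prevention (by 1.42) and lower in reversal (-0.53), and its mean difference over both models was 0.44 (exact two-sided permutation test within models, p = 0.35, smallest possible p 0.005). In prevention the index did not overlap between diets (0.968 to 1.98 on chow and 2.66 to 3.19 on HFD, exact p = 0.1, the smallest that 3 against 3 arrays allow), and in reversal it did (exact p = 0.6). Reversal chow 2 stood apart: its beta-actin 3' signal was 10.46, against 11.99 to 12.92 on the other 11 arrays, and at least 850 genes differed over 2-fold between it and any other array. All arrays of the prevention model had means of 5.08 to 5.10 and all of the reversal model 5.25 to 5.26, so levels are compared within a model only.

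HFD raised 49 genes and lowered 7, which is 0.371% and 0.0529% of the 13221 genes tested. All 56 moved the same way in both models, and in 54 of them the HFD and chow arrays did not overlap in either model: 47 were higher (0.355% of genes tested) and 7 lower (0.0529%). The exceptions were Rhbg and Pyroxd2. The genes were called from these same arrays, so neither their shared direction nor the lack of overlap is separate support for a shared effect. At any p, 223 genes (1.69%) were higher and 46 (0.348%) lower without overlap, and at an unadjusted p under 0.05, 961 (7.27%) were higher and 449 (3.4%) lower. Among those past the adjusted threshold, 22 rose (0.166%) and 4 fell (0.0303%) by over 2-fold. Differences ran from 0.40 (Mtch1, 1.32-fold) to 4.44 (Cyp2b9). Of the 49 that rose, 38 had the larger difference in reversal, and of the 7 that fell, 6 had the larger difference in prevention. The difference between models passed its own test in 3 of the 56, Pparg, Thrsp and Lect2, against 976 of all genes tested (7.38%). With the 3' to 5' index as a covariate no gene passed that test (1160 at an unadjusted p under 0.05), while the differences themselves were 1.22 for Pparg (1.09 without the covariate), 2.42 for Thrsp (2.45) and 0.63 for Lect2 (1.25), with adjusted p of 0.455, 0.496 and 0.579. The count also rested on single arrays, and no gene passed without prevention chow 1 or 3, without any 1 of the prevention HFD arrays, or without reversal chow 3 or HFD 1 (2868 to 3467 at an unadjusted p under 0.05). It gave 1940 genes without prevention chow 2, 1745 without reversal chow 1, and 268, 455 and 376 without reversal chow 2, HFD 2 and HFD 3. For the other 53 no difference was detectable with these arrays, which does not show that the models act alike.

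Over all genes tested, whether or not they passed, the models gave opposite signs more often than the same sign. Across the 13221 genes, 5172 (39.1%) had the same sign in both models, and the correlation of their prevention and reversal effects was negative (Pearson r = -0.201, Spearman rho = -0.302). Genes are not independent replicates, so these correlations carry no p. The 3' to 5' index also moved in opposite directions in the 2 models. Its part in them was not tested. With the index as a covariate, 132 genes passed higher and 26 lower, all 56 among them. In prevention the index did not overlap between diets, so index and diet cannot be told apart in that model.

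**Figure D1:**
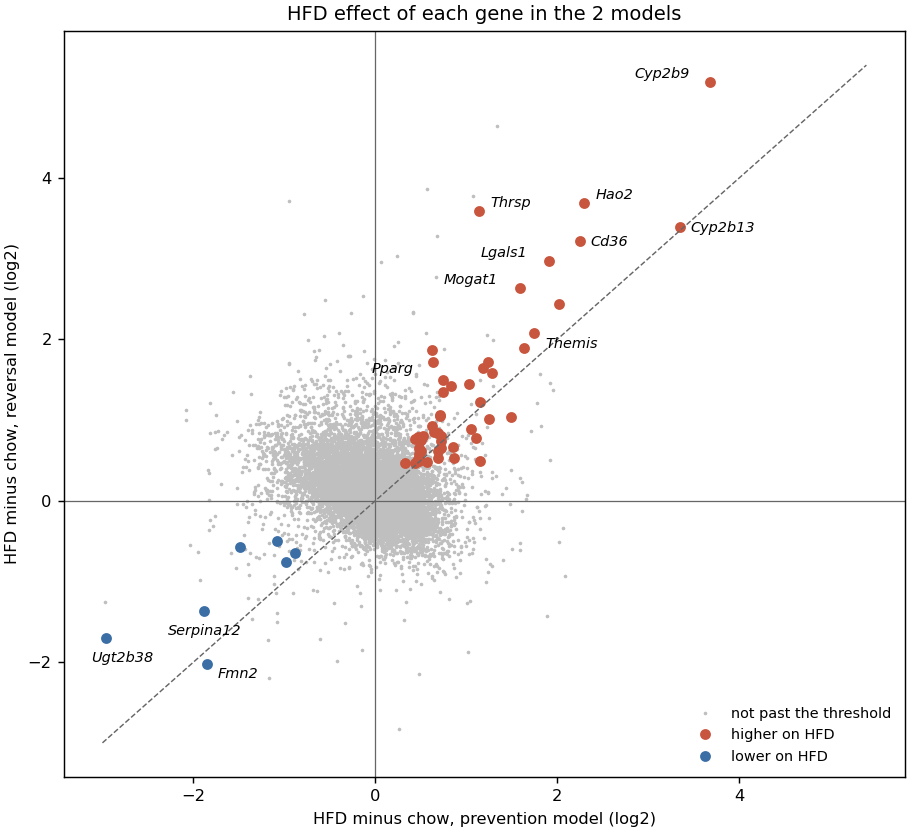
Each point is 1 of the 13221 genes tested, placed by its HFD minus chow difference (log2) in the prevention model (x axis) and in the reversal model (y axis), and the dashed line marks equal differences. The 49 genes that rose lie in the upper right and the 7 that fell in the lower left, while the grey cloud of the other genes slopes downward.

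The number of genes past the threshold rested on single arrays. It was 3 higher and 0 lower without prevention HFD 1 and 5 and 0 without prevention HFD 2. Without prevention chow 1, 2 or 3 it was 11 and 0, 10 and 1, or 16 and 2. Without reversal chow 1 or 3 it was 15 and 3 or 23 and 5, and without reversal HFD 2 or 3 it was 29 and 13 or 19 and 5. Leaving out reversal chow 2, the array that stood apart, gave 50 and 19. Sizes moved less than calls: each difference of the 56 genes stayed between 0.844 and 1.17 times its value with all arrays. None changed sign, which was fixed in advance for the 54 genes without overlap. The calls that held in all 12 of these fits were those of Cyp2b9, Cyp2c38 and Limd2, a LIM domain protein (2.19-fold higher, adjusted p = 0.00219). Limd2 is 1 of 7 genes of the 56 on probe sets ending in _s_at or _x_at, which can bind related transcripts. Its difference was 1.13 there, and 0.81, 0.70 and 0.16 on its other probe sets, the last of them dim.

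**Figure D2:**
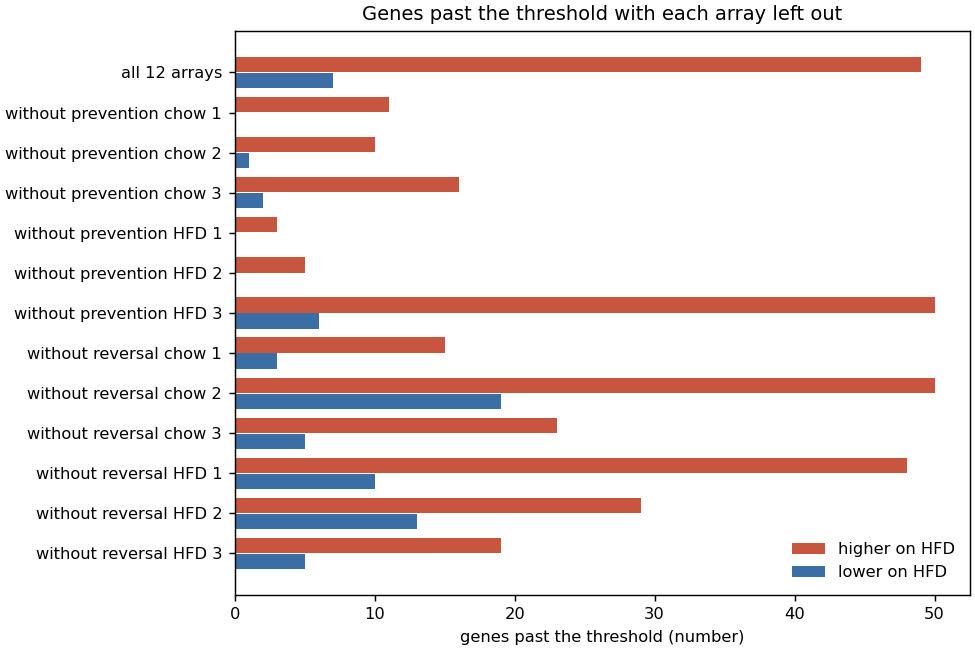
Bars give the number of genes past the threshold (adjusted p under 0.05), higher (red) or lower (blue) on HFD, with all 12 arrays and with each array left out. The number higher runs from 3 without prevention HFD 1 to 50 without prevention HFD 3 or reversal chow 2.

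The largest rises were those of 2 cytochromes P450 of the Cyp2b family, which oxidise steroids and foreign compounds and are normally far higher in female than in male mouse liver. Cyp2b9 read 6.96, 5.93 and 5.71 on prevention chow and 9.90, 10.32 and 9.42 on HFD, and 5.47, 3.95 and 6.35 on reversal chow against 10.76, 9.85 and 10.73 on HFD. Every HFD array lay above every chow array, and the difference was 4.44 ± 0.433 (21.6-fold, adjusted p = 0.00219). Cyp2b13 read 5.17, 5.13 and 4.92 on prevention chow and 8.55, 9.94 and 6.77 on HFD, and 4.76, 4.94 and 4.68 on reversal chow against 9.36, 7.25 and 7.97 on HFD. The HFD arrays varied widely among themselves in this gene but none reached the chow range, and the difference was 3.37 ± 0.462 (10.4-fold, adjusted p = 0.0188). The highest adjusted p with 1 array left out was 0.0147 for Cyp2b9 and 0.0686 for Cyp2b13. Each is measured by 1 probe set; the genes are close relatives, and whether either probe set binds both transcripts was not tested.

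Shown are the 250 bases before an annotated start of Cyp2b9 and Cyp2b13, which moved together and are nearly the same there. The sequences include the same stretch of Cd36, a lipid uptake gene described below. They are from RefSeq (GRCm38.p6), each read 5′ to 3′ on the gene's strand: Cyp2b9 chr7:26173159-26173408 (+), Cyp2b13 chr7:26061245-26061494 (+) and Cd36 chr5:17835897-17836146 (−). The Cd36 stretch lies inside the gene's annotated span (17781690 to 17888959), so it precedes an internal start and not the outermost one. The Cyp2b stretches run past the outermost annotated starts (26173350 for Cyp2b9 and 26061388 for Cyp2b13). Capitals mark AGGTCA, the core of a nuclear receptor half-site, or its reverse complement TGACCT, and the single capitals mark the bases at which the Cyp2b sequences differ.
Cyp2b9: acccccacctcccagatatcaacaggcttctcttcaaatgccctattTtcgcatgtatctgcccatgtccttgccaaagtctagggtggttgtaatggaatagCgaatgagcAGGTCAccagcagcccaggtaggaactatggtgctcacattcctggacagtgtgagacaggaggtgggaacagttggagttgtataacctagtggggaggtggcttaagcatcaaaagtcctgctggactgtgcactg
Cyp2b13: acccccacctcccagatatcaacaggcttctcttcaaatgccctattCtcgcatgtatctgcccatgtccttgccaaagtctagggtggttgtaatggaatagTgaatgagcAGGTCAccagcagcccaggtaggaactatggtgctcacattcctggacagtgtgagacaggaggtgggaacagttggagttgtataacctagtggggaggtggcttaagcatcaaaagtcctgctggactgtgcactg
Cd36: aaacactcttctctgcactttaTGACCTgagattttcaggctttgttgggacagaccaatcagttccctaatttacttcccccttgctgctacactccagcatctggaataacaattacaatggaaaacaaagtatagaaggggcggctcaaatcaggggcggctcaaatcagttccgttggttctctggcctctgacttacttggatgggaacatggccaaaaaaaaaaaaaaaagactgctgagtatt

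Cyp2b9 and Cyp2b13 matched at 248 of 250 bases (99.2%), with T48C and C104T as the differences, counted from the first base printed with Cyp2b9 first. Each matched Cyp2b10, the family member best known for its induction by phenobarbital, at 186 of 250 (74.4%). Cyp2b10, named here for that comparison after its value was seen, differed by 0.00 ± 0.119 (adjusted p = 0.998). AGGTCA on either strand was found in 14 of the 47 genes past the threshold that had a promoter entry (29.8%) and in 1489 of 10625 genes tested (14%). All the sequences shown hold it, but Hao2, Thrsp, Slc13a3, Mogat1, Themis and Cyp2c38, also among the largest rises, did not. A match of letters is a description, not a binding site.

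**Figure D3:**
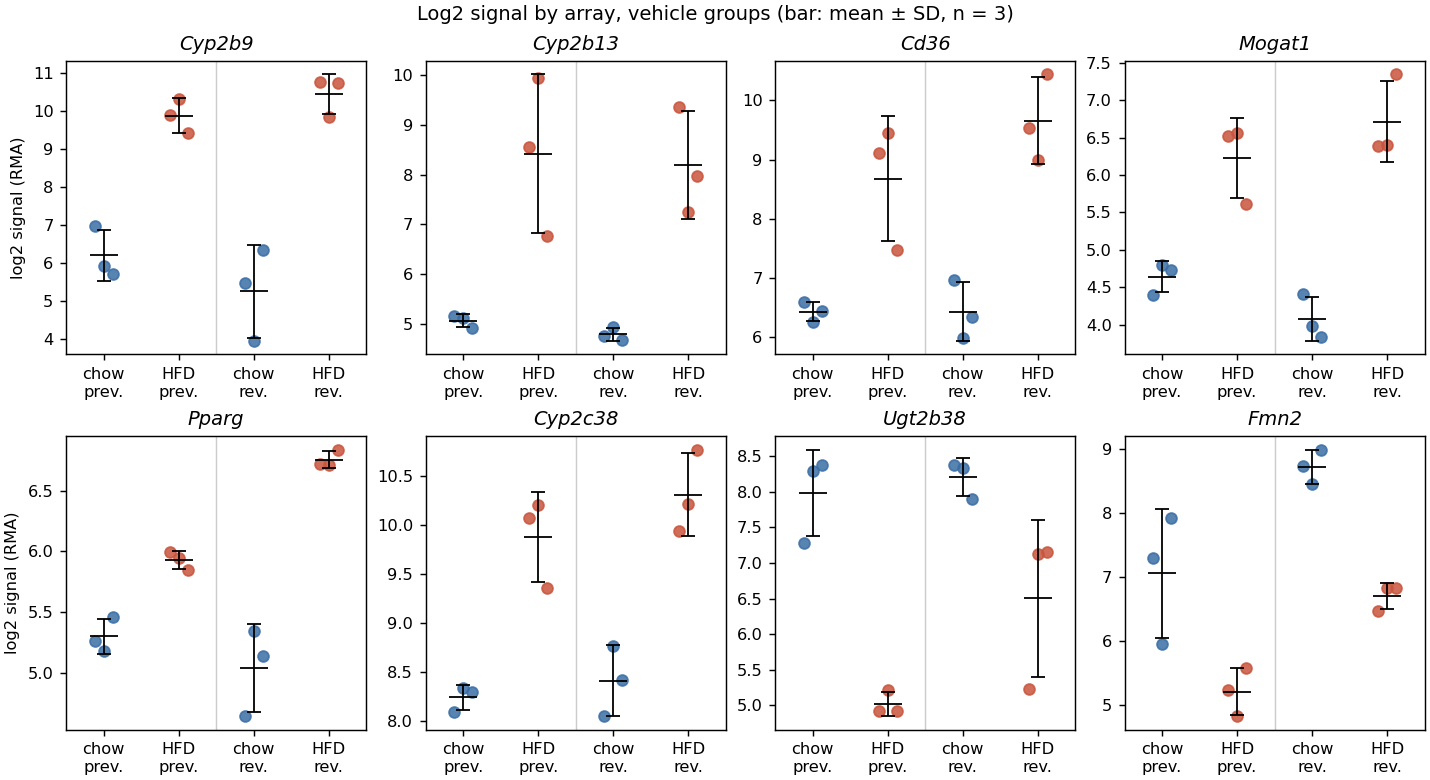
Log2 signal of 8 genes on each of the 12 arrays (points), by model (prev., prevention; rev., reversal) and diet, with group mean ± SD (n = 3 a group). Chow (blue) and HFD (red) arrays do not overlap within either model in any of the 8 genes, and Cyp2b13 and Cd36 vary most among the prevention HFD arrays.

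Hao2, a peroxisomal 2-hydroxy acid oxidase, and Cd36, a fatty acid transporter, are also female-biased in mouse liver. Hao2 read 4.25, 4.85 and 3.85 on prevention chow and 6.09, 7.38 and 6.38 on HFD, and 3.67, 3.85 and 3.93 on reversal chow against 9.07, 5.28 and 8.19 on HFD. Reversal HFD 2 was the lowest HFD array, still above all chow arrays, while every reversal chow array lay under the limit for dim probe sets. The difference was 3.00 ± 0.556 (7.98-fold, adjusted p = 0.0426). Of 31 female-biased genes listed, 17 were tested, and Cyp2b9, Cyp2b13, Hao2 and Cd36 rose while the other 13 did not pass. The median of the 17 was 0.17, against 0.01 over all genes tested, with 0.29 in prevention and 0.05 in reversal. At an unadjusted p under 0.05, 7 of the 17 were higher and 1 lower. Of 31 male-biased genes, 23 were tested, 2 fell and none rose (1 higher and 10 lower at an unadjusted p under 0.05). Their median was -0.52, with -0.77 in prevention and -0.21 in reversal.

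The 2 male-biased genes that fell were Ugt2b38, a glucuronosyltransferase that conjugates steroids and drugs, and Serpina12, the secreted protease inhibitor vaspin. Ugt2b38 read 7.28, 8.29 and 8.38 on prevention chow and 4.92, 5.22 and 4.92 on HFD, and 8.38, 8.34 and 7.90 on reversal chow against 5.23, 7.12 and 7.16 on HFD. All HFD arrays were below all chow arrays of their model, and it fell by 2.33 ± 0.365 (5.04-fold, adjusted p = 0.0236). Serpina12 read 10.67, 9.78 and 10.63 on prevention chow and 7.87, 8.35 and 9.21 on HFD, and 11.21, 10.43 and 10.73 on reversal chow against 8.86, 10.05 and 9.35 on HFD. The groups did not overlap, and it fell by 1.63 ± 0.281 (3.09-fold, adjusted p = 0.0339). Ugt2b1 was -0.74 ± 0.167 (adjusted p = 0.0926) and Gstp1 -0.27 ± 0.0781 (adjusted p = 0.211), both without overlap.

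PPARγ and 3 genes of its list rose. In the fatty acid and lipoprotein uptake list 1 of 16 genes tested rose, Cd36, and none fell (3 at an unadjusted p under 0.05), with a median of 0.02 and the binding protein gene Fabp5 at -2.11 (adjusted p = 0.135). In the lipid droplet coat and lipolysis list none of 19 passed in limma (2 higher and 1 lower at an unadjusted p under 0.05), with a median of 0.04. Cd36 read 6.60, 6.27 and 6.44 on prevention chow and 9.11, 9.45 and 7.48 on HFD, and 6.96, 5.98 and 6.35 on reversal chow against 9.54, 8.99 and 10.44 on HFD. Prevention HFD 3 was nearest to chow, and no HFD array reached it; the difference was 2.74 ± 0.363 (6.66-fold, adjusted p = 0.0188). The 2 further probe sets of Cd36 gave 3.00 and 2.49. Mogat1, which makes diacylglycerol from monoacylglycerol, read 4.40, 4.80 and 4.72 on prevention chow and 6.52, 6.56 and 5.61 on HFD, and 4.41, 3.98 and 3.84 on reversal chow against 6.39, 6.41 and 7.34 on HFD. It lay near the limit for dim probe sets on chow and clearly above it on every HFD array, and rose by 2.11 ± 0.260 (4.33-fold, adjusted p = 0.0119).

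Pparg itself read 5.26, 5.18 and 5.46 on prevention chow and 5.99, 5.95 and 5.85 on HFD, and 4.64, 5.34 and 5.14 on reversal chow against 6.73, 6.71 and 6.84 on HFD. The HFD arrays were tightly grouped and above chow in both models, by 1.18 ± 0.194 on average (2.26-fold, adjusted p = 0.0288), with 0.63 in prevention and 1.72 in reversal (difference 1.09, adjusted p = 0.0346). Lgals1, which encodes the sugar-binding protein galectin-1, read 7.13, 7.47 and 7.33 on prevention chow and 9.52, 9.72 and 8.42 on HFD, and 7.57, 5.43 and 7.10 on reversal chow against 9.47, 9.29 and 10.26 on HFD. Its groups did not overlap, and it rose by 2.44 ± 0.380 (5.43-fold, adjusted p = 0.0236). Of 17 listed PPARγ and lipid storage genes, 13 were tested. Of these 4 rose (Pparg, Cd36, Mogat1 and Lgals1) and none fell, with a median of 0.38. At an unadjusted p under 0.05, 6 were higher and 2 lower, and the lowest was Lpl at -1.20 (adjusted p = 0.249). Over all genes tested 0.371% rose. The list was chosen with earlier results of these data known, so its count is not separate support. The lipid droplet protein gene Plin4 was higher by 1.29 ± 0.304 without overlap but did not pass (adjusted p = 0.115).

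The lipid synthesis lists gave 1 call each or none. Thrsp, a lipogenic factor that follows carbohydrate feeding and thyroid hormone, read 9.59, 9.55 and 10.48 on prevention chow and 10.87, 11.33 and 10.85 on HFD, and 7.38, 8.60 and 7.60 on reversal chow against 11.20, 10.97 and 12.18 on HFD. The prevention gap was narrow and the reversal gap wide: 1.14 and 3.59, a difference of 2.45 (adjusted p = 0.0353). It rose by 2.37 ± 0.445 on average (5.17-fold, adjusted p = 0.0457), but the mean of its probe sets gave 1.51 (adjusted p = 0.107). It was the only one of 21 fatty acid synthesis genes tested to pass (9 higher and 2 lower at an unadjusted p under 0.05). Fasn was 0.65 (adjusted p = 0.284), Srebf1 0.44 (0.565), Acaca 0.03 (0.949), Acacb 0.18 (0.843) and Scd1 -0.25 (0.87). In triglyceride synthesis 1 of 19 genes rose, Mogat1, and Dgat2, which makes triglyceride from diacylglycerol, was 0.43 without overlap (adjusted p = 0.0716). In cholesterol synthesis and uptake none of 19 passed in limma (7 higher and 0 lower at an unadjusted p under 0.05). Of the 19, 17 were positive and the median was 0.46 (0.01 over all genes tested), 0.11 in prevention and 0.92 in reversal. Hmgcs1, which makes the first committed intermediate, was 1.22 (adjusted p = 0.0869).

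The oxidation, ketone body and glucose production lists held 1 rise and 1 fall. Of 20 mitochondrial oxidation genes none passed (2 higher and 1 lower at an unadjusted p under 0.05), with a median of -0.01 that was -0.31 in prevention and 0.30 in reversal. Cpt1a, the carnitine transferase that admits fatty acids to mitochondria, was -0.45 (adjusted p = 0.381), Ppara -0.05 (0.94) and the hormone gene Fgf21 -0.94 (0.289). The gluconeogenic genes Pck1 and G6pc were -0.89 (adjusted p = 0.114) and -1.07 (0.161). In peroxisomal and omega oxidation Hao2 rose, 1 of 24, while Cyp4a14 was -1.45 without overlap (adjusted p = 0.248). Slc16a1, which carries lactate and ketone bodies across membranes, fell, 1 of 4 genes tested in the ketone body list. It read 9.90, 9.46 and 9.87 on prevention chow and 8.24, 8.37 and 8.14 on HFD, and 10.68, 10.22 and 10.55 on reversal chow against 10.05, 10.10 and 9.58 on HFD. The reversal gap was small but clean, and the fall was 1.03 ± 0.183 (2.05-fold, adjusted p = 0.0369).

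Another pair of P450s, Cyp2c38 and Cyp2c39, which are known to oxidise arachidonic acid and retinoic acid respectively, rose as well. Cyp2c38 read 8.09, 8.33 and 8.29 on prevention chow and 10.07, 10.20 and 9.35 on HFD, and 8.05, 8.77 and 8.42 on reversal chow against 9.94, 10.21 and 10.77 on HFD. Its spread was small in all groups, and the difference of 1.77 ± 0.187 (3.41-fold, adjusted p = 0.00345) passed with each array left out. Cyp2c39 differed by 1.41 ± 0.212 (2.67-fold, adjusted p = 0.0225), also without overlap. They were the 2 of 20 polyunsaturated fatty acid genes tested to rise, with a list median of -0.03. In the xenobiotic list the 2 of 23 that rose were Cyp2b9 and Cyp2b13 (8 higher and 0 lower at an unadjusted p under 0.05). In it 20 were positive, with a median of 0.25, against 0.01 over all genes tested. None of 23 glutathione transferase and NRF2 target genes passed (6 higher and 1 lower at an unadjusted p under 0.05), although Gstm3 at 1.66 (adjusted p = 0.0895), Gstm4 at 0.53 (0.0895) and Gstm2 at 1.64 (0.146) did not overlap; these 3 are close paralogs.

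Genes normally highest around the central vein made up 3 of the rises. Slc13a3, a carrier of citric acid cycle intermediates, read 7.16, 6.72 and 6.24 on prevention chow and 9.10, 9.25 and 7.82 on HFD, and 6.42, 7.65 and 6.14 on reversal chow against 8.76, 9.58 and 9.18 on HFD. It rose by 2.23 ± 0.316 without overlap (4.69-fold, adjusted p = 0.0193), on a probe set ending in _x_at, which can bind related transcripts. Of its other probe sets, the one bright enough to test gave 1.77. Rhbg, an ammonium transporter, read 6.54, 7.46 and 6.67 on prevention chow and 8.25, 8.82 and 8.08 on HFD, and 6.72, 7.60 and 6.88 on reversal chow against 7.59, 8.43 and 8.32 on HFD. Reversal HFD 1 lay level with reversal chow 2, the only overlap, and the difference was 1.27 ± 0.233 (2.41-fold, adjusted p = 0.0426).

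Lect2, a secreted hepatokine, read 10.37, 10.05 and 10.26 on prevention chow and 10.82, 11.06 and 10.66 on HFD, and 10.14, 9.36 and 9.79 on reversal chow against 11.88, 11.34 and 11.68 on HFD. It rose in both models by 1.24 ± 0.230 (2.37-fold, adjusted p = 0.0426), and more in reversal (1.87) than in prevention (0.62, difference 1.25, adjusted p = 0.0367). Of 19 pericentral genes tested, 17 were positive, with a median of 0.25 (0.01 over all genes tested) that was 0.14 in prevention and 0.53 in reversal. The other 16 did not pass, and 10 of the 19 were higher and 1 lower at an unadjusted p under 0.05. Glul, glutamine synthetase, was 0.44 without overlap (adjusted p = 0.0648). Of 16 periportal genes none passed (1 higher and 5 lower at an unadjusted p under 0.05). Their median of -0.16 was -0.47 in prevention and 0.02 in reversal, so it was not shared by the models.

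Themis and Cxcl1 are better known from immune cells and inflammation. Themis, a regulator of T cell receptor signalling, read 4.05, 4.08 and 4.40 on prevention chow and 6.43, 6.58 and 4.77 on HFD, and 4.23, 5.08 and 4.82 on reversal chow against 6.90, 6.49 and 6.98 on HFD. It rose by 1.91 ± 0.282 without overlap (3.77-fold, adjusted p = 0.0216), and its other probe sets were dim. Of 21 T and NK cell markers on the array, 12 were bright enough to test, and no other passed: Cd3e was -0.07 and Cd8a 0.00, and the list median was -0.03. The summed level of the list includes Themis itself, so it is not a measure separate from that gene. It was 8.29 to 8.66 on prevention chow and 8.38 to 9.14 on prevention HFD. In reversal it was 8.65 to 8.78 on chow and 8.67 to 9.11 on HFD, with Cd3e the brightest marker. In bulk tissue, fewer cells of a type and less RNA per cell cannot be told apart.

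Cxcl1, a neutrophil-attracting chemokine, read 9.56, 9.69 and 9.30 on prevention chow and 10.79, 11.34 and 10.26 on HFD, and 8.17, 7.89 and 9.42 on reversal chow against 10.50, 9.86 and 9.86 on HFD. It rose by 1.43 ± 0.263 without overlap (2.69-fold, adjusted p = 0.0426), on a probe set whose name marks possible binding of related transcripts. The mean of its probe sets gave 1.33 (adjusted p = 0.0897). None of 9 neutrophil markers passed (3 higher and 0 lower at an unadjusted p under 0.05); S100a8 was 1.09 (adjusted p = 0.199) and S100a9 0.89 (0.246). Their summed level ran from 8.09 to 8.30 on reversal chow and from 8.57 to 10.83 on reversal HFD, and overlapped in prevention (8.14 to 9.22 against 8.41 to 9.96); Lcn2, which inflamed hepatocytes also make, was the brightest of them. The part of neutrophil content in the Cxcl1 difference was not tested. None of 22 Kupffer cell and macrophage markers passed (1 higher and 1 lower at an unadjusted p under 0.05), and none of 26 stellate cell and matrix markers did (6 higher and 0 lower), where Col1a2 was 0.57 (adjusted p = 0.137) and Col3a1 0.88 (0.148). Of 7 pancreatic acinar markers tested none passed (0 higher and 4 lower at an unadjusted p under 0.05), but their median of -0.79 was the lowest of the 50 lists. Their mean level ran from 5.86 to 7.68 on prevention chow, 5.74 to 5.83 on prevention HFD, 5.36 to 6.68 on reversal chow and 5.44 to 5.62 on reversal HFD. The digestive enzyme gene Prss2 was highest on prevention chow 3 (7.79) and on reversal chow 1 (6.62). The part of acinar RNA in the diet differences was not tested. The 9 hepatocyte markers tested had mean levels of 11.75 to 12.20 on single arrays, with Alb the brightest.

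Few acute-phase, cytoskeleton and lysosome genes passed the threshold. At an unadjusted p under 0.05 in limma, 7 acute-phase genes were higher and 0 lower. The counts were 12 and 0 in the cytoskeleton list and 5 and 1 in the lysosome list. Saa4, the constitutively made serum amyloid A, read 12.10, 12.10 and 11.74 on prevention chow and 12.68, 12.96 and 12.43 on HFD, and 11.95, 11.67 and 12.22 on reversal chow against 12.77, 13.22 and 13.04 on HFD. It rose by 0.89 ± 0.140 without overlap (1.85-fold, adjusted p = 0.0237) and was the 1 of 25 acute-phase genes to pass. The mean of its probe sets gave 0.77 (adjusted p = 0.467). Larger differences did not pass: Lcn2 was 2.99 (adjusted p = 0.289), Orm2 2.43 (0.188), Saa2 2.22 (0.363) and Saa1 1.98 (0.292). Of the 25 genes, 19 were positive. Krt8, a keratin of hepatocytes and bile duct cells, read 10.43, 10.47 and 10.35 on prevention chow and 11.20, 11.20 and 10.79 on HFD, and 10.30, 10.16 and 10.58 on reversal chow against 11.33, 11.17 and 11.10 on HFD. It rose by 0.75 ± 0.105 without overlap (1.68-fold, adjusted p = 0.0188). Krt8 and Lgals1 were the 2 of 24 cytoskeleton and steatohepatitis-associated genes that rose. Of the 24, 20 were positive, with a median of 0.47, against 0.01 over all genes tested. Hexa, a lysosomal hexosaminidase subunit, rose by 1.12 ± 0.207 (2.17-fold, adjusted p = 0.0426), 1 of 21 lysosome genes. None of 24 unfolded protein response genes passed (0 in either direction at an unadjusted p under 0.05), with a median of -0.50 in prevention and 0.41 in reversal.

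**Figure D4:**
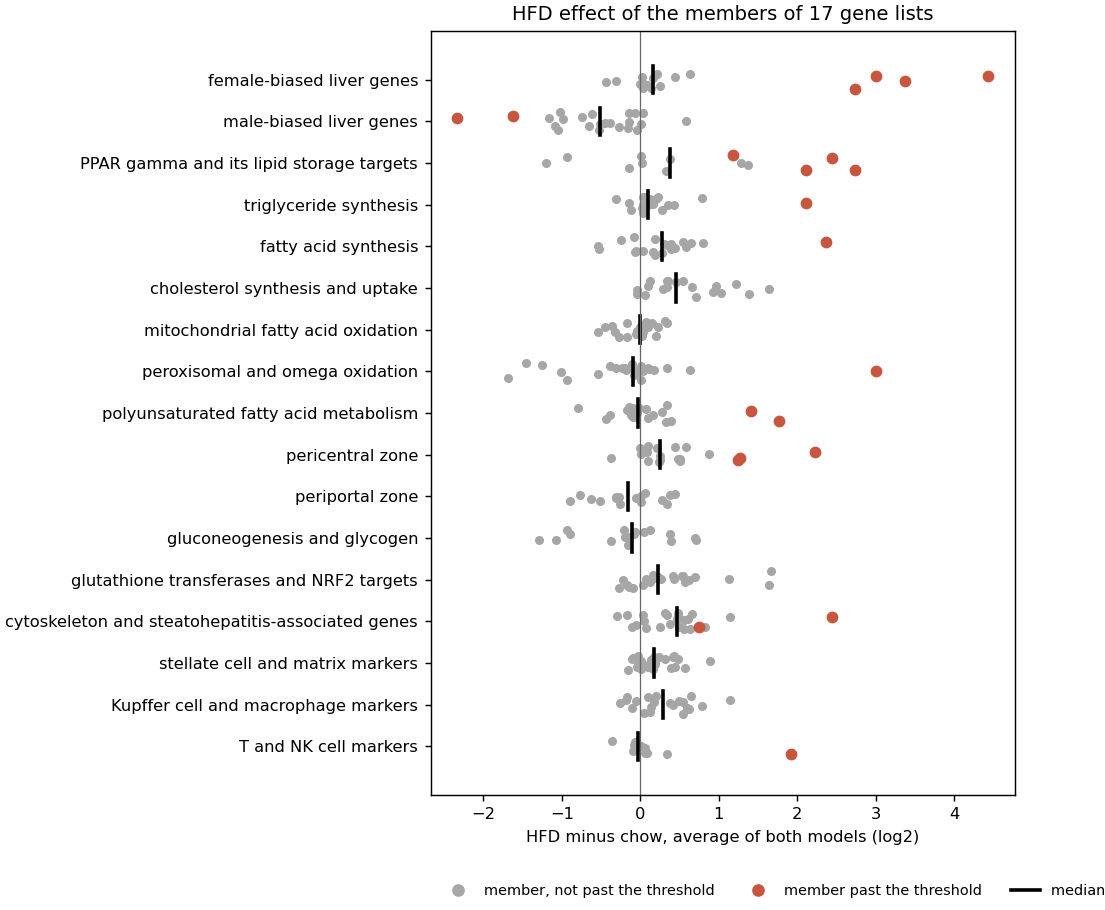
Each row is a gene list and each point the HFD minus chow difference (log2, average of both models) of 1 tested member, red where it passed the threshold, with a bar at the list median. Points past the threshold are few in each row, with 4 in the female-biased and PPARγ rows, 2 on the negative side in the male-biased row and none in the cholesterol or mitochondrial oxidation rows.

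The remaining genes that fell did so in both models without overlap. Fmn2, a formin that assembles actin filaments, read 7.30, 5.95 and 7.92 on prevention chow and 5.23, 4.82 and 5.57 on HFD, and 8.74, 8.44 and 8.98 on reversal chow against 6.47, 6.82 and 6.83 on HFD. It fell by 1.93 ± 0.276 (3.82-fold, adjusted p = 0.0193), and of its 2 other probe sets the one bright enough to test gave -1.70. Klb, the β-klotho co-receptor through which hepatocytes and other cells sense FGF15 and FGF21, read 7.92, 7.84 and 8.04 on prevention chow and 6.82, 6.88 and 6.85 on HFD, and 8.85, 8.25 and 8.34 on reversal chow against 7.94, 7.87 and 8.12 on HFD. It fell by 0.79 ± 0.135 (1.73-fold, adjusted p = 0.0331) and was the 1 of 24 bile acid genes to pass. Chrna2, a nicotinic receptor subunit, fell by 0.87 ± 0.132 (1.83-fold, adjusted p = 0.0232), and Atrn, the transmembrane protein attractin, by 0.76 ± 0.117 (1.70-fold, adjusted p = 0.0236).

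The remaining genes past the threshold, most of them named to complete the account after their values were seen, all rose. Pmm1, a phosphomannomutase, was among the 14 largest rises of named genes without overlap at 1.24 ± 0.198 (adjusted p = 0.0246). The mean of its probe sets gave 0.88 (adjusted p = 0.128). Others were Atpif1, the inhibitor of ATP synthase (1.13), Car5a, the mitochondrial carbonic anhydrase (0.82), Chchd6, a part of the complex that shapes the cristae (0.76), Gatb, which helps charge glutamine tRNA (0.56), Mfn2, which fuses outer membranes (0.53), and the carrier-like Mtch1 (0.40). In the respiratory chain list none of 27 genes passed in limma (3 higher and 0 lower at an unadjusted p under 0.05), with a median of 0.14. Tpgs2, a subunit of a tubulin polyglutamylase, rose by 0.70. Ttll1, a tubulin ligase, was on average 3.72 on chow, under the limit for dim probe sets, and 4.60 on HFD, so it was tested only through its HFD arrays and the size of its rise is uncertain. Further rises were those of Sytl4 (1.05), Scamp5 (0.97) and the adaptor subunit Ap1s3 (0.60). Gas6, the ligand of the TAM receptors, rose by 0.76 and the surface protein gene Cd24a by 0.61. Enzymes among them were Aldh1l1 of folate metabolism (0.57), Dglucy (0.73), Uck1, a uridine-cytidine kinase (0.63), Echdc3 (0.52), Ptges2 (0.49), Cryz (0.49), Pyroxd2 (0.94) and Nat8f1 (0.45). The list closes with Dop1b (1.19), Cutal (0.78), Klhl13 (0.76), Tmem237 (0.69), Arhgap26 (0.66), Ociad2 (0.65) and Tmc6 (0.63), and 1 clone is not named. Averaging the probe sets of a gene moved Atpif1, Atrn, Chchd6, Cutal, Dop1b, Gas6, Gatb, Nat8f1, Pyroxd2, Scamp5 and Thrsp by over 1.5 times, and of these only Chchd6 still passed (1.20); 40 of the 56 genes passed that way.

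**Figure D5:**
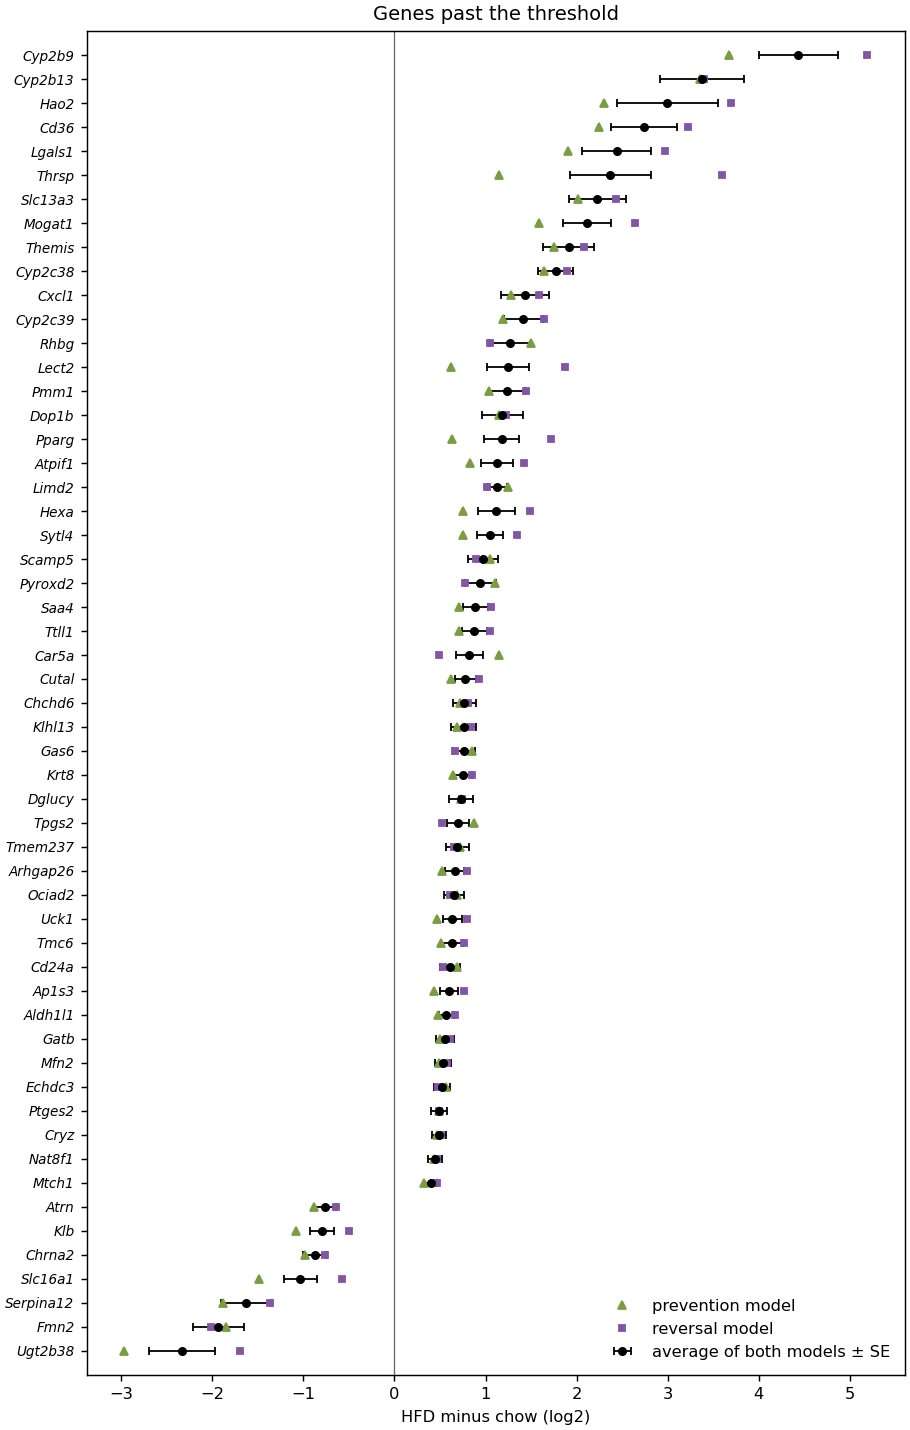
HFD minus chow difference (log2) of the 55 named genes past the threshold: black points give the average of both models ± SE (6 HFD and 6 chow arrays), green triangles the prevention model and purple squares the reversal model. All symbols of a gene lie on the same side of 0, and the models are farthest apart in Thrsp (1.14 and 3.59).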

How the data were processed

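Liver RNA (200 ng) was made into biotin-labelled cRNA and hybridised to Affymetrix mouse arrays, per the labels' protocols. The deposited log2 values were made by the authors with Expression Console 1.1 and RMA, per the submitters' processing notes. Arrays give no depth, and their number limits the precision. Of 45101 probe sets (64 controls), 34945 had 1 gene symbol, 932 several and 9160 none listed. The 40% dimmest were dropped and each gene took its brightest probe set, giving 13221 genes, 1520 of them on probe sets ending in _s_at or _x_at, which can bind related transcripts.

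The 12 arrays were fitted with limma 3.58.1 in R 4.3.3 (diet, model as a block, empirical Bayes, Benjamini-Hochberg adjustment over all genes). Alternatives changed the samples, filter, probe sets, normalization, RNA quality, replicate block, moderation and arrays. The members and the 50 gene lists were chosen with earlier results of these data known. Named genes were the 14 per direction with the largest difference past the threshold and no overlap, list members past it (otherwise the 2 with the smallest p), and 12 always given (Acaca, Acacb, Cd36, Fasn, Fgf21, Scd1, Pparg, G6pc, Srebf1, Pck1, Ppara, Cpt1a). Cd3e, Cd8a, Cyp2b10, Cyp4a14, Glul, Gstm2, Gstp1, Lcn2, Lpl, Saa1, Saa2 and the other genes past the threshold were named after their values were seen. Promoters came from RefSeq (GRCm38.p6). The calling steps were tested on simulated data.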

Additional observations from a re-analysis of the deposited data

Results flagged for a closer look

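In 6 named genes the HFD effect differed between models by limma's interaction test (reversal minus prevention, log2; 6 arrays a model). The difference was 1.58 for C6 (-1.82 in prevention, -0.24 in reversal, adjusted p = 0.0483), 1.01 for Cpt1a (-0.96 and 0.05, adjusted p = 0.0346) and 0.83 for Cyp2f2 (-0.93 and -0.10, adjusted p = 0.0359). It was 1.25 for Lect2 (0.62 and 1.87, adjusted p = 0.0367), 1.09 for Pparg (0.63 and 1.72, adjusted p = 0.0346) and 2.45 for Thrsp (1.14 and 3.59, adjusted p = 0.0353). With the 3' to 5' index as a covariate none of the 6 passed (adjusted p from 0.455 to 0.579), and the differences were 2.02 for C6, 1.22 for Pparg and 2.42 for Thrsp, and 0.65 for Cpt1a, 0.55 for Cyp2f2 and 0.63 for Lect2.

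The 6 arrays of mice given CMPF (6 mg/kg per day) on HFD were outside the comparison; replicates 2 and 3 of the prevention group were nearly identical and were averaged as 1. The values are given for the 2 largest rises and the 2 largest falls. Minus chow, the mean over both models was 2.16 for Cyp2b9 (2.37 in prevention, 1.95 in reversal) and -1.58 for Ugt2b38 (-1.22 and -1.93). It was -1.35 for Fmn2 (-0.70 and -2.0) and 0.53 for Cyp2b13, which was 1.21 in prevention and -0.14 in reversal, where its CMPF arrays read 4.62, 4.68 and 4.66 against 4.68 to 4.94 on chow. The same chow arrays serve both differences, and these values were not tested.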

How the results depend on the processing

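Of the 1400 values of the 56 genes under alternatives, 745 stayed past the threshold, 655 did not and 0 changed sign. In fits that only left out arrays, the 54 genes without overlap could not change sign. The genes not past the threshold gave 56 values past it among 1900. Against 49 higher and 7 lower (87.5% higher), 80 and 17 passed with 4 group means and 181 and 46 with all groups in 1 fit (104 and 19 without overlap), where replicates 2 and 3 of the prevention CMPF group, nearly identical, were averaged as 1. Quantile normalization gave 49 and 20 (71% higher, 18 lower without overlap) and cyclic loess 67 and 24 (73.6% higher, 22 lower without overlap); the median of all genes was 0.0103 as deposited, -0.0108 and 0.00361. With the 3' to 5' index as a covariate it was 132 and 26 (11 lower without overlap). Prevention arrays alone gave 60 and 218 (218 without overlap) and reversal arrays alone 0 and 0 by limma (2054 genes at an unadjusted p under 0.05), where fewer arrays were tested. With each array left out, the count higher ran from 3 to 50 and the count lower from 0 to 19, also without overlap (3 to 50 and 0 to 19); where limma gave 0 lower, 1110 to 1388 genes had an unadjusted p under 0.05 in either direction. Genes whose effect differed between models numbered 976, with 447 after quantile normalization, 519 after cyclic loess, 0 with the index as a covariate and 0 to 1940 with an array left out. The index difference was 1.42 in prevention alone (exact p = 0.1) and -0.53 in reversal alone (exact p = 0.6).

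Whether replicate numbers pair the arrays was not settled. Same-numbered chow and HFD arrays correlated at 0.442, -0.176 and -0.0549 in prevention and 0.341, 0.104 and -0.0878 in reversal. Different-numbered arrays correlated at -0.384 to 0.395 in prevention and -0.292 to 0.173 in reversal. The arrays numbered 1 gave the highest value in each model, so pairing was not excluded. With the replicate block 5 and 1 genes passed (4 and 1 without overlap), all 6 among the 56. Chosen after seeing the data, leaving out prevention chow 1 and 3 gave 2 and 0, and leaving out reversal chow 2 and HFD 1 gave 64 and 25 (25 lower without overlap). Signal over background limits genes near 4.01, such as Mogat1 and Hao2 on chow.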
